A study of Mus musculus with 30 samples.

Results

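The genes described here were 10 markers of cytotoxic T cells and natural killer (NK) cells, Cd3e, Cd8a, Cd8b1, Gzma, Gzmb, Prf1, Ifng, Nkg7, Klrk1 and Ncr1. They were chosen by name, and all 10 were found among the 53431 genes of the count table. Gene expression was measured by RNA-seq of polyadenylated RNA in 24 tumors and 6 cell cultures. CT-26 and Colon 26 are murine colon carcinoma lines from BALB/c mice, and tumors of both were grown by implanting cells in the flank of female BALB/c mice. Each model gave 4 tumors at each of the 3 sizes, 100, 400 and 800 mm3, with measured volumes of 102.9 to 145.86, 400.47 to 466.73 and 807.93 to 963.18 mm3, and each line was also sequenced as 3 cultures. No sample label names an antibody, and the tumors were taken as untreated. The age of the mice is not given in the sources used here, and the label of a tumor gives its own volume but not its animal, so that p-values measure the spread between tumors as sampled. Total counts per library ranged from 22923606 to 35681914 in the tumors and from 21384730 to 39722586 in the cultures.

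Cytotoxic T cells and NK cells kill target cells by releasing granules that hold perforin, which opens the target membrane, and granzymes, serine proteases that enter through it and start cell death. T cells recognise a peptide on a major histocompatibility complex (MHC) class I molecule through the T cell receptor and its CD3 chains, with CD8 as the co-receptor. NK cells carry no rearranged receptor and weigh signals from activating receptors such as NKG2D and NKp46 against those from inhibitory receptors for MHC class I. Both cell types secrete interferon-gamma, which raises antigen presentation in the cells around them.

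The 10 genes have distinct parts in this process. Cd3e (chr9:44998740-45009627, minus strand) encodes the CD3 epsilon chain of the T cell receptor complex. Cd8a (chr6:71373427-71379173, plus strand) and Cd8b1 (chr6:71322788-71337494, plus strand) encode the alpha and beta chains of CD8 and lie next to each other. Klrk1 (chr6:129610323-129623864, minus strand) encodes NKG2D, an activating receptor of NK cells and CD8 T cells, and Ncr1 (chr7:4337724-4345164, plus strand) encodes NKp46, an activating receptor carried mainly by NK cells. Ifng (chr10:118441046-118445892, plus strand) encodes interferon-gamma. Gzma (chr13:113093825-113100981, minus strand) and Gzmb (chr14:56258838-56262260, minus strand) encode granzymes A and B, and Prf1 (chr10:61297833-61304680, plus strand) encodes perforin. Nkg7 (chr7:43437073-43438249, plus strand) encodes a membrane protein of cytotoxic granules. Positions are those of GENCODE M21 on GRCm38, and all 10 genes are protein coding there. Exons of Cd3e overlap those of Gm48719 on the opposite strand and exons of Ifng overlap those of Gm49751 on the same strand, and reads from these pairs may not be separable.

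Promoters are shown for the 5 genes that were lower in Colon 26 tumors at every size (Gzma, Gzmb, Prf1, Nkg7 and Ncr1) and for Cd3e, which was not. Each is the 250 bases before a RefSeq start of the gene on GRCm38.p6, 5′ to 3′ on the strand of the gene. The windows are chr13:113100982-113101231 (minus strand) for Gzma, chr14:56262335-56262584 (minus strand) for Gzmb, chr10:61297586-61297835 (plus strand) for Prf1, chr7:43436888-43437137 (plus strand) for Nkg7, chr7:4337465-4337714 (plus strand) for Ncr1 and chr9:45009612-45009861 (minus strand) for Cd3e. Capitals mark every match, on either strand, to the motif letters. These were TGTGGT for Runx factors, TCACACC for T-box factors, GGAAA for the NFAT core and TGACTCA for AP-1, and no match overlapped another in the windows shown.
Gzma: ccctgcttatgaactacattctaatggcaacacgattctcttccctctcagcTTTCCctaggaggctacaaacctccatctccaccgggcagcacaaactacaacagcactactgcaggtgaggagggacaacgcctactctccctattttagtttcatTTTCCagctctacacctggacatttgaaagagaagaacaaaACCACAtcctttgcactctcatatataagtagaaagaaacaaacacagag
Gzmb: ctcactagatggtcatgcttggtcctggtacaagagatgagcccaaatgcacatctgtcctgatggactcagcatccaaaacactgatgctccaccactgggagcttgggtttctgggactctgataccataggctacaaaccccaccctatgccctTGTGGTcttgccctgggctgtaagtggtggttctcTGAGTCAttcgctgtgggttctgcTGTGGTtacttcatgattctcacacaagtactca
Prf1: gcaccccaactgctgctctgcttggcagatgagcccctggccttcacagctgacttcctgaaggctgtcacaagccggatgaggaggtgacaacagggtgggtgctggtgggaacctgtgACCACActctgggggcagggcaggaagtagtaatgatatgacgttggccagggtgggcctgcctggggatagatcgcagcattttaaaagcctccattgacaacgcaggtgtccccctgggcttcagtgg
Nkg7: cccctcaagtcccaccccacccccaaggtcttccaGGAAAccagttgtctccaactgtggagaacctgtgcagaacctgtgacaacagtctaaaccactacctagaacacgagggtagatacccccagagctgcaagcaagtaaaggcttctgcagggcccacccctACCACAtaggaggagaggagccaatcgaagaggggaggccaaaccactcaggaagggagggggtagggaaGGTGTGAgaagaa
Ncr1: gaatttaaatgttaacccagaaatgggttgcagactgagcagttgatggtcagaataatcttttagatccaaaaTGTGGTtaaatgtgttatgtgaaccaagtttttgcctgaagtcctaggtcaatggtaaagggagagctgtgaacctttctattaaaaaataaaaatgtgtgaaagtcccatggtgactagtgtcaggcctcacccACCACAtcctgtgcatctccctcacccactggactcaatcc
Cd3e: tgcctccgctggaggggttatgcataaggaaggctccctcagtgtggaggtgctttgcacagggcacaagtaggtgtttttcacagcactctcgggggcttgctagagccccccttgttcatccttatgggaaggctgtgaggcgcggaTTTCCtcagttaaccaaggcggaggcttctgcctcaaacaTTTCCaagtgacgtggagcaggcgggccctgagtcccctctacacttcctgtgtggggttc
A single window was used per gene, and for Ncr1, which had 2, it was the first listed. The Runx letters were in 6 of the 9 windows used, namely those of Gzma, Gzmb, Prf1, Nkg7, Klrk1 and Ncr1, and in 14.0% of all 32851 windows of this length. The NFAT core was in 5 of the 9 windows (Cd3e, Cd8a, Gzma, Ifng and Nkg7) and in 55.6% of all windows. The T-box letters were only in the Nkg7 window of the 9 and in 3.33% of all windows, and the AP-1 letters only in the Gzmb window of the 9 and in 4.46% of all windows. No window was found for Cd8b1. The RefSeq start of Gzmb lies upstream of its GENCODE start and that of Nkg7 downstream. A match describes the letters only and not a bound site.

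Cultured CT-26 and Colon 26 cells had almost no reads of these genes, which gives the background for the tumors. Of the 60 values (10 genes in 6 cultures), 45 were 0 and the highest was 3 counts, for Prf1 in a CT-26 culture. Ifng and Ncr1 were at 0 in all 6 cultures. The limit that a count of 0 allows is 3 counts in a culture. At the mean depth of the cultures this stands for 0.123 CPM (counts scaled to library size) in CT-26 and 0.0781 CPM in Colon 26, and for more in a shallower culture. These limits cover counting error only. None of the 10 genes passed the filter on low counts in the comparison of the cultures, in which 22.9% of the genes tested were differentially expressed (DE). Ptprc, which encodes the pan-leukocyte protein CD45, was also near background, with at most 5 counts in a culture.

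The 10 genes spanned a wide range of levels in the tumors. Per gene length, in FPKM (fragments scaled to gene length and library size), the medians over the 12 CT-26 tumors were highest for Gzmb (30.4) and Gzma (24), followed by Prf1 (14.1), Nkg7 (13.7) and Klrk1 (5.67). The median FPKM was lower for Cd8a (2.61), Ncr1 (2.29), Cd8b1 (2.11), Cd3e (1.59) and Ifng (0.957). In the 12 Colon 26 tumors the order began with Gzmb (6.39), Nkg7 (4.71), Gzma (3.65), Prf1 (3.42) and Klrk1 (3.00), and ended with Cd8b1 (1.30), Cd8a (1.27), Cd3e (0.957), Ncr1 (0.787) and Ifng (0.481). The FPKM ranges of every pair of neighbours in either order overlapped. The medians of the granule genes stood above those of the T cell receptor and co-receptor genes in both models, and the ratio of the CT-26 to the Colon 26 median FPKM ran from 1.63 for Cd8b1 to 6.56 for Gzma. In bulk tissue, fewer cells of a type and less RNA per cell cannot be told apart.

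The first comparison was between the 2 models at each tumor size. A gene was called DE at an adjusted p of 0.1 or less if its log2 fold change was also 1 or more in size, and fold changes are given as Colon 26 over CT-26. Of the 10 genes, 5 were lower in Colon 26 tumors at 100 mm3 (Gzma, Gzmb, Prf1, Nkg7 and Ncr1), where 13.2% of all 15406 genes tested were DE, 7.06% lower and 6.17% higher. At 400 mm3 all 10 were lower, where 14.3% of all genes tested were DE, 7.79% lower and 6.48% higher. At 800 mm3 the same 5 as at 100 mm3 were lower, where 14.1% of all genes tested were DE, 7.62% lower and 6.5% higher. None was higher at any size. The median log2 fold change of the 10 genes was -1.77, -1.93 and -0.75 at 100, 400 and 800 mm3, beside 0.00, 0.03 and -0.01 for all genes tested. Averaged over the 3 sizes in a single fit of the 24 tumors, 8 of the 10 genes were lower (all but Cd3e and Klrk1), where 14.7% of all genes tested were DE, 7.73% lower and 6.94% higher. Without replicate 2 of the CT-26 tumors of 100 mm3 the number was 5, and the share of all genes in that fit is not given here.

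**Figure D1:**
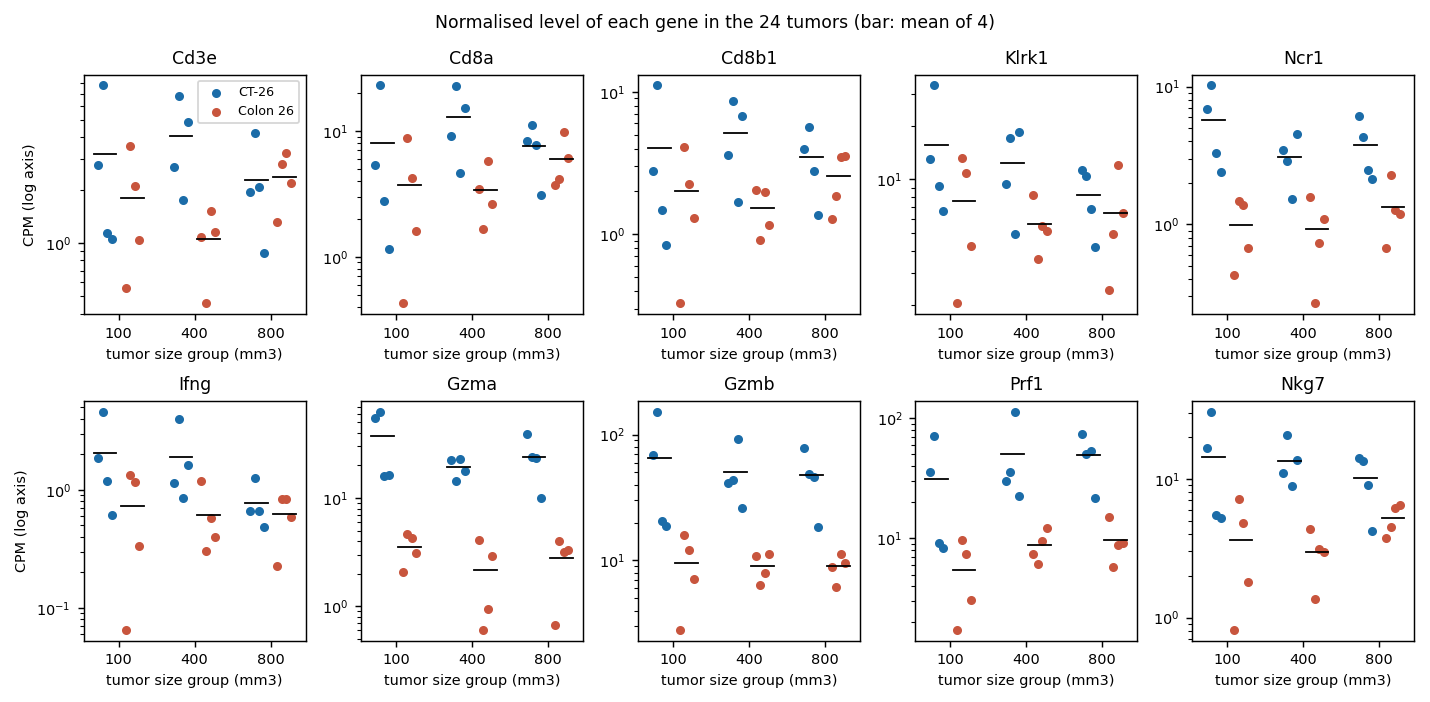
Normalised level of each gene in CPM on a log axis against the tumor size group, with 4 tumors per group as points and their mean as a bar. Gzma stood apart between CT-26 (10.1 to 62.7 CPM) and Colon 26 (0.609 to 4.61 CPM) at every size, while Cd3e overlapped at 100 and 800 mm3.

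Gzma showed the widest separation. The 4 CT-26 tumors of 100 mm3 had 54.3, 62.7, 15.9 and 16.4 CPM and the 4 Colon 26 tumors 2.06, 4.61, 4.32 and 3.13 CPM. At 400 mm3 the CT-26 tumors had 22.3, 14.3, 22.8 and 17.8 CPM and the Colon 26 tumors 4.14, 0.609, 0.951 and 2.94 CPM. At 800 mm3 the values were 38.8, 24, 23.3 and 10.1 CPM in CT-26 and 0.674, 3.98, 3.15 and 3.29 CPM in Colon 26. Every CT-26 tumor was above every Colon 26 tumor, within each size and across sizes. The log2 fold change was -3.43 ± 0.53 (SE), -3.15 ± 0.54 and -3.16 ± 0.49 at 100, 400 and 800 mm3, with edgeR adjusted p of 0.000712, 0.00151 and 0.000398.

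Gzmb was also separated at every size, with a smaller gap at 100 mm3. Its level there was 68.9, 152.0, 20.6 and 18.7 CPM in the CT-26 tumors and 2.82, 16, 12.0 and 7.18 CPM in the Colon 26 tumors. At 400 mm3 it was 41.0, 43.3, 92.0 and 25.9 CPM in CT-26 and 10.9, 6.39, 7.97 and 11.2 CPM in Colon 26, and at 800 mm3 it was 77.6, 48.5, 46.0 and 18.3 CPM against 8.88, 6.15, 11.3 and 9.55 CPM. In both CT-26 groups of 100 and 800 mm3 the lowest tumors, at 18.7 and 18.3 CPM, came close to the highest Colon 26 tumor of 100 mm3 at 16 CPM. The log2 fold change was -2.80 ± 0.76 (SE), -2.47 ± 0.38 and -2.45 ± 0.37, with edgeR adjusted p of 0.0142, 0.000902 and 0.000337.

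Markers of mast cells differed between the models in the same direction as Gzmb, which mouse mast cells can also express. Of 6 mast cell markers, 5 were lower in Colon 26 at each size, among them Cpa3, a mast cell carboxypeptidase (log2 fold change -3.48, -3.61 and -4.68), and Tpsb2, a tryptase (-3.79, -3.52 and -5.33). The median log2 fold change of the 6 was -3.38, -3.48 and -4.87 at 100, 400 and 800 mm3. Their summed level was 34.5 to 167 CPM in the 12 CT-26 tumors and 6.46 to 17.7 CPM in the 12 Colon 26 tumors, without overlap, and all 6 were at or under 3 counts in the cultures. Within the 12 CT-26 tumors the 3 tumors with the lowest mast cell sums, all of 400 mm3 (34.5, 39.1 and 40.3 CPM), had 41.0, 92.0 and 43.3 CPM of Gzmb, and the fourth tumor of that size (92.7 CPM) had 25.9 CPM. In the CT-26 tumors of 100 mm3 both fell in the same order, with mast cell sums of 167, 121, 81.4 and 59.9 CPM and Gzmb at 152.0, 68.9, 20.6 and 18.7 CPM. At 800 mm3 sums of 57.5, 67.8, 88.0 and 125 CPM stood beside 77.6, 48.5, 18.3 and 46.0 CPM of Gzmb. The part of these markers in the Gzmb difference was not tested.

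**Figure D2:**
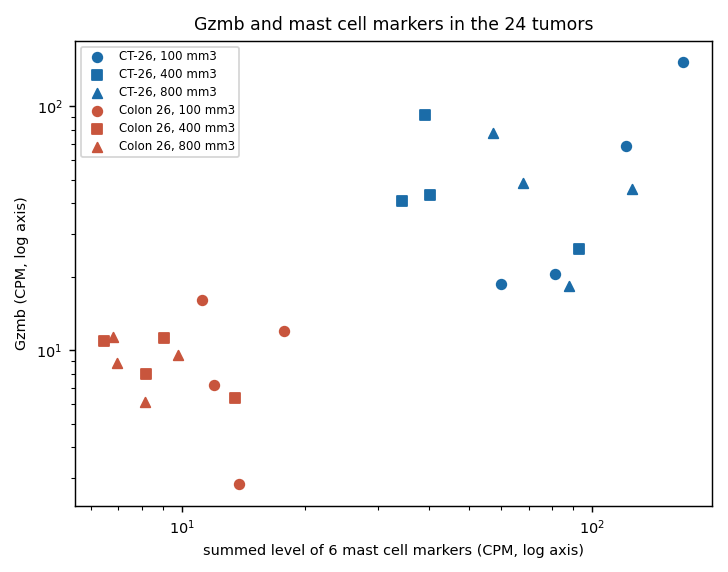
Level of Gzmb against the summed level of 6 mast cell markers in each of the 24 tumors, both in CPM on log axes, with the model as color and the size as symbol. The 12 CT-26 tumors lie above the 12 Colon 26 tumors on both axes, with mast cell sums of at least 34.5 CPM against at most 17.7 CPM.

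Prf1 was separated at 400 and 800 mm3 but not at 100 mm3. At 100 mm3 the CT-26 tumors had 35.7, 71.6, 9.11 and 8.33 CPM and the Colon 26 tumors 1.74, 9.69, 7.40 and 3.09 CPM, so that a pair of CT-26 tumors fell below the highest Colon 26 tumor. At 400 mm3 the values were 29.9, 35.7, 113 and 22.3 CPM in CT-26 and 7.43, 6.13, 9.45 and 12.2 CPM in Colon 26. At 800 mm3 they were 73.4, 50.3, 53.0 and 21.8 CPM against 15, 5.76, 8.85 and 9.07 CPM. Every CT-26 tumor at these larger sizes was above every Colon 26 tumor. Its log2 fold change was close to the same at each size, -2.53 ± 0.79 (SE), -2.51 ± 0.52 and -2.40 ± 0.37, with edgeR adjusted p of 0.0256, 0.00415 and 0.000354.

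Nkg7 had its largest difference at 400 mm3. The levels there were 11, 20.7, 8.82 and 13.6 CPM in CT-26 and 4.37, 1.37, 3.10 and 2.98 CPM in Colon 26, without overlap. At 100 mm3 they were 16.8, 30.5, 5.45 and 5.23 CPM against 0.819, 7.16, 4.81 and 1.80 CPM, and at 800 mm3 14.1, 13.5, 9.04 and 4.20 CPM against 3.72, 4.49, 6.20 and 6.51 CPM, with overlap in both. In log2 terms the change was -2.01 ± 0.75 (SE), -2.19 ± 0.37 and -1.01 ± 0.34, with edgeR adjusted p of 0.0522, 0.00152 and 0.0298. The value at 800 mm3 lies at the minimum fold change, and it was no longer called when any of 4 of the 8 tumors was left out (log2 fold change -0.81 to -0.92). At 100 mm3 the call was lost without CT-26 replicate 2 (log2 fold change -1.35) or without Colon 26 replicate 4 (-1.79).

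Ncr1, the marker most particular to NK cells among the 10 by textbook knowledge, was lower in Colon 26 at every size. At 100 mm3 the CT-26 tumors had 6.93, 10.2, 3.32 and 2.39 CPM and the Colon 26 tumors 0.426, 1.47, 1.39 and 0.668 CPM, without overlap. At 400 mm3 the values were 3.46, 2.87, 1.52 and 4.56 CPM against 1.58, 0.266, 0.736 and 1.09 CPM, and at 800 mm3 6.07, 4.30, 2.47 and 2.13 CPM against 0.674, 2.26, 1.26 and 1.18 CPM. At each of the larger sizes the lowest CT-26 tumor lay just under the highest Colon 26 tumor. The log2 fold change was -2.55 ± 0.54 (SE), -1.75 ± 0.50 and -1.51 ± 0.41, with edgeR adjusted p of 0.00423, 0.0203 and 0.011.

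The CD3 and CD8 genes passed the test between the models at 400 mm3 and not at the other sizes. Cd3e had 2.71, 6.83, 1.76 and 4.86 CPM in the CT-26 tumors of 400 mm3 and 1.08, 0.457, 1.53 and 1.16 CPM in the Colon 26 tumors, without overlap. At 100 mm3 it had 2.78, 7.80, 1.14 and 1.05 CPM in CT-26 and 0.557, 3.53, 2.10 and 1.04 CPM in Colon 26. At 800 mm3 it had 1.96, 4.22, 2.08 and 0.882 CPM against 1.32, 2.80, 3.22 and 2.18 CPM. The models overlapped at 100 and 800 mm3, and at 800 mm3 3 of the 4 Colon 26 tumors were above 3 of the 4 CT-26 tumors. The log2 fold change was -1.93 ± 0.48 (SE, edgeR adjusted p = 0.0109) at 400 mm3, beside -0.84 ± 0.74 (edgeR adjusted p = 0.375) at 100 mm3 and 0.01 ± 0.42 (edgeR adjusted p = 0.986) at 800 mm3.

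Cd8a and Cd8b1 followed Cd3e. At 400 mm3 Cd8a had 9.12, 22.9, 4.65 and 15.1 CPM in CT-26 and 3.46, 1.67, 5.74 and 2.62 CPM in Colon 26, with a log2 fold change of -1.94 ± 0.52 (SE, edgeR adjusted p = 0.0149). For Cd8b1 the log2 fold change at that size was -1.75 ± 0.50 (SE, edgeR adjusted p = 0.0193). The 2 groups overlapped for both genes through CT-26 replicate 3, which had the lowest CD3 and CD8 levels of its group. At 100 mm3 the log2 fold changes of Cd8a and Cd8b1 were -1.13 and -1.05 and at 800 mm3 they were -0.39 and -0.49, and none of these passed the test. The values at 100 mm3 rested on CT-26 replicate 2, the tumor with the most Cd8a (23 CPM, against 1.15 to 5.36 CPM in the other 3): without it the log2 fold change was 0.10 for Cd3e, 0.25 for Cd8a and 0.21 for Cd8b1.

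Ifng and Klrk1 passed the test only at 400 mm3, by a small margin. Ifng was the least abundant of the 10 genes, with 0.0655 to 1.33 CPM in the Colon 26 tumors and 0.487 to 4.59 CPM in the CT-26 tumors. Its log2 fold change was -1.52 ± 0.80 (SE), -1.61 ± 0.58 and -0.35 ± 0.42 at 100, 400 and 800 mm3, with edgeR adjusted p of 0.148, 0.0493 and 0.511. Klrk1 ranged from 4.20 to 33.5 CPM in CT-26 and from 2.03 to 13.2 CPM in Colon 26, and its log2 fold change was -1.07 ± 0.65 (SE), -1.15 ± 0.41 and -0.38 ± 0.44, with edgeR adjusted p of 0.202, 0.0487 and 0.498. The groups overlapped for both genes at every size. The calls at 400 mm3 were lost for Ifng when any of 4 of the 8 tumors was left out and for Klrk1 when any of 5 was.

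**Figure D3:**
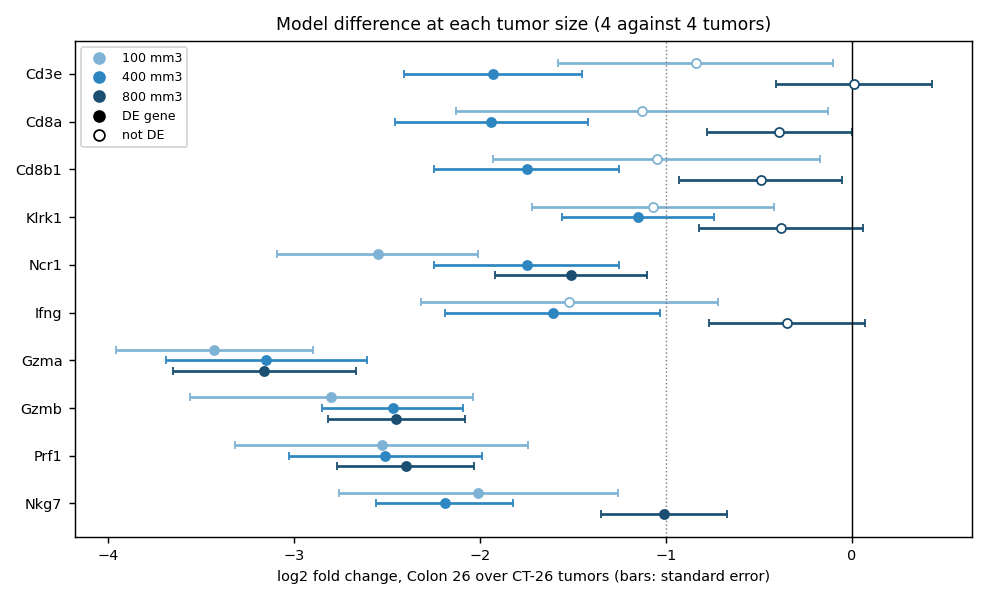
Log2 fold change of Colon 26 over CT-26 tumors for each gene at 100, 400 and 800 mm3, with the standard error as a bar, filled points for DE genes and the dotted line at the minimum fold change of -1. Gzma, Gzmb, Prf1, Nkg7 and Ncr1 are filled at all 3 sizes, and the other 5 genes are filled only at 400 mm3.

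The number of genes whose groups did not overlap gives a plainer view of the same values. Every Colon 26 tumor was below every CT-26 tumor for 3 of the 10 genes at 100 mm3 (Gzma, Gzmb and Ncr1), where this held for 24.7% of all genes with a mean of at least 1 CPM. It held for 5 of the 10 at 400 mm3 (Cd3e, Gzma, Gzmb, Prf1 and Nkg7), beside 22.7% of all such genes, and for 3 of the 10 at 800 mm3 (Gzma, Gzmb and Prf1), beside 24.8%. At 100 and 800 mm3 these shares were near the background.

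The difference between the models was then compared across sizes. None of the 10 genes passed the test for a change of the model difference from 100 to 400 mm3, where none of the 16487 genes tested did (0%, with 1381 at an unadjusted p under 0.05 and 30 called by DESeq2), or from 100 to 800 mm3, where 0.0485% did (0.0243% in each direction). None of the 10 reached an unadjusted p under 0.05 in either, and DESeq2 called none of them. At 800 against 100 mm3 the change was toward a smaller model difference for all 10 genes, by 0.14 to 1.18 on the log2 scale, with edgeR adjusted p of 0.656 to 0.975. These tests share the 100 mm3 tumors. For Cd3e, Cd8a, Cd8b1, Ifng and Klrk1, called at 400 mm3 alone, the model difference at 400 mm3 is not shown to differ from that at 100 mm3, and 400 mm3 was not tested against 800 mm3.

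Size was also compared within each model. None of the 10 genes passed the test in CT-26 tumors of 400 or 800 mm3 against 100 mm3, where no gene did (0% of 15104 and 0% of 15298 genes tested, with 3356 and 1610 genes at an unadjusted p under 0.05 and 150 and 39 called by DESeq2). None passed in Colon 26 tumors, where 0.0131% and 1.33% of all genes tested were DE. DESeq2 called none of the 10 in any of these comparisons. At an unadjusted p under 0.05 stood only Ifng, in CT-26 at 800 against 100 mm3, with a log2 fold change of -1.40 ± 0.58 (SE, edgeR adjusted p = 0.452). Prf1 was the gene with the highest log2 fold change over 100 mm3 in all 4 comparisons, at 0.68 ± 0.75 (SE) and 0.68 ± 0.65 in CT-26 and 0.68 ± 0.49 and 0.80 ± 0.48 in Colon 26, and the edgeR adjusted p was 0.383 to 0.717. Without replicate 3 of the CT-26 tumors of 400 mm3 the first of these values was -0.09.

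Levels relative to Cd3e were then compared within each tumor, to ask whether the granule and NK genes differed beyond the T cell receptor signal. The log2 ratio was taken from normalised values with a prior count of 2, and 30 ratios (9 genes to Cd3e and Cd3e to Ptprc, at 3 sizes) were tested between models by a 2-sided exact permutation test. With 4 against 4 tumors the smallest possible p was 0.029, which came to an adjusted p of 0.071 over the 30 tests, and all 12 ratios that passed had these values.

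At 100 mm3 the log2 ratio to Cd3e was lower in Colon 26 for 6 genes. For Gzma it was 3.71 ± 0.53 (SD, n = 4) in CT-26 and 1.17 ± 0.61 (SD, n = 4) in Colon 26, a difference of -2.54 (exact permutation p = 0.029). The difference was -1.87 for Gzmb, -1.60 for Prf1, -1.38 for Nkg7, -1.76 for Ncr1 and -0.97 for Ifng, with the same exact permutation p. For each of these 6 genes all 4 CT-26 tumors were above all 4 Colon 26 tumors. Cd8a (-0.33), Cd8b1 (-0.16) and Klrk1 (-0.48) overlapped between the models, with exact permutation adjusted p of 0.64, 0.69 and 0.17.

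At 800 mm3 the same held for 5 genes, with a difference in log2 ratio to Cd3e of -3.37 for Gzma, -2.44 for Gzmb, -2.49 for Prf1, -1.03 for Nkg7 and -1.61 for Ncr1. Gzma was 3.40 ± 0.72 (SD, n = 4) in CT-26 and 0.04 ± 0.68 (SD, n = 4) in Colon 26 on this scale. At 400 mm3 none of the 9 ratios to Cd3e passed, and the differences ran from -1.67 for Gzma to 0.77 for Klrk1 (exact permutation adjusted p of 0.21 and 0.12). There it was Cd3e relative to Ptprc that was lower in Colon 26, at -6.15 ± 0.54 (SD, n = 4) against -4.51 ± 0.37 (SD, n = 4) in CT-26 (exact permutation p = 0.029). Cd3e relative to Ptprc differed by -0.59 at 100 mm3 and 0.12 at 800 mm3, with overlap. Ratios to Cd3e rest on 12 to 238 counts of Cd3e per tumor, and whether they changed from size to size was not tested.

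**Figure D4:**
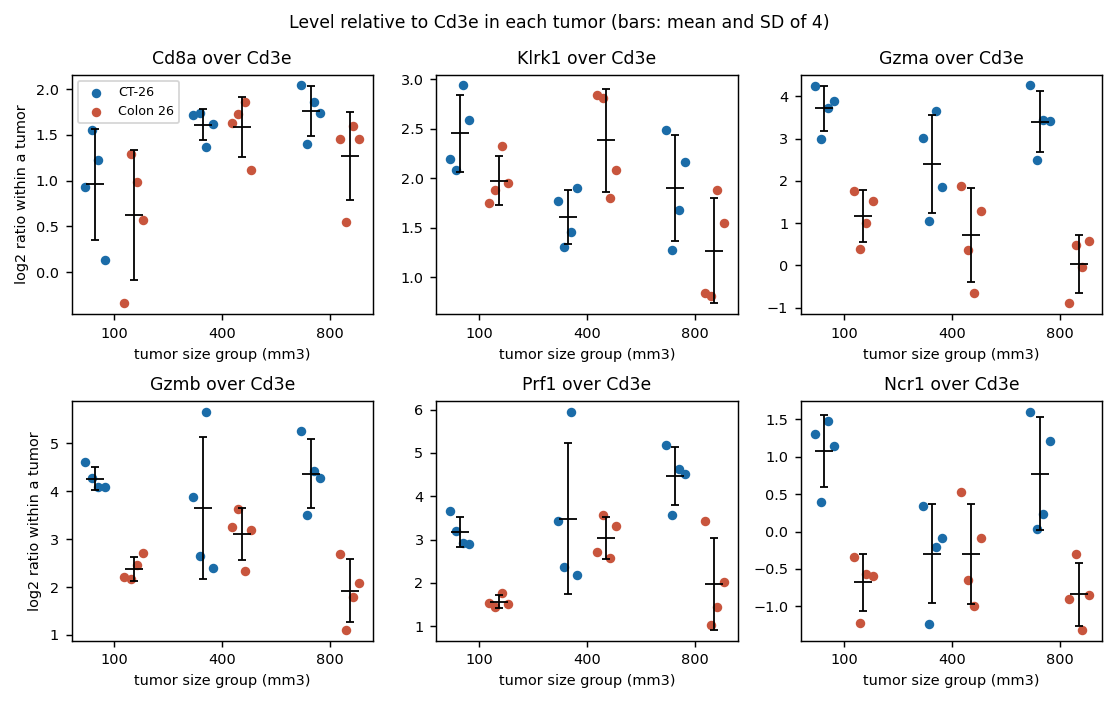
Log2 ratio of Cd8a, Klrk1, Gzma, Gzmb, Prf1 and Ncr1 to Cd3e in each tumor against the size group, with the mean and SD of 4 tumors as bars. At 100 and 800 mm3 the CT-26 and Colon 26 tumors do not overlap for Gzma, Gzmb, Prf1 and Ncr1, while at 400 mm3 all 6 ratios overlap.

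Ptprc itself did not pass the test at any size. Its level was 69.6 to 186, 44.0 to 122 and 54.0 to 99.4 CPM in the CT-26 tumors and 62.1 to 121, 64.9 to 86.7 and 69.2 to 98.6 CPM in the Colon 26 tumors of 100, 400 and 800 mm3. The log2 fold change was -0.16, -0.25 and 0.00. Of 6 macrophage markers, 1 (Csf1r at 400 mm3, log2 fold change 1.01) was higher in Colon 26 and none was lower. Summed, these 6 markers had 60.8 to 66.5 CPM in CT-26 cultures and 3.88 to 4.91 CPM in Colon 26 cultures. The part of the carcinoma cells in the macrophage marker values was not tested. Of 4 neutrophil markers tested at each size, 1 was higher at 100 mm3 and 4 and 3 were lower at 400 and 800 mm3. Of 6 markers of CD4 and regulatory T cells, 0, 2 and 1 were lower at 100, 400 and 800 mm3, among them Ctla4, an inhibitory receptor (log2 fold change -2.25 and -1.52 at the larger sizes). Of 5 conventional type 1 dendritic cell markers, 1, 2 and 2 were lower. These included Xcr1, a chemokine receptor of those cells, with -1.58 (not passed), -2.0 and -1.15. The adhesion gene Cadm1 on this list was also lower in cultured Colon 26 than CT-26 cells (log2 fold change -4.89). Trdc, the constant region of the T cell receptor delta chain, was lower at each size (-2.36, -1.98 and -1.78), while Sox13, also expressed outside gamma delta T cells, was higher (1.54, 1.5 and 1.01). Sox13 was also higher in cultured Colon 26 than CT-26 cells (log2 fold change 2.79). Of 5 B cell markers only Cd79b passed the filter on low counts, and it was lower at each size (-1.17, -1.53 and -1.20).

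Markers of stroma and adjacent tissue also differed between groups. Of 5 endothelial markers none passed at any size. Of 5 fibroblast markers, 3, 3 and 2 were higher and 1 (Dcn) was lower in Colon 26. Cultured Colon 26 cells also had higher Col1a1 (log2 fold change 2.39) and lower Dcn (-5.26) than CT-26 cells. Col3a1 was lower there too (-1.29), and Pdgfra had 0.76, under the minimum fold. Summed, the 5 markers had 306 to 330 CPM in Colon 26 cultures and 85.7 to 89.2 CPM in CT-26 cultures. The part of the carcinoma cells in the fibroblast marker differences was not tested. The summed level of 5 skeletal muscle markers ranged from 0.943 to 482 CPM in CT-26 and from 1.37 to 2480 CPM in Colon 26, and all 5 were lower in Colon 26 at 800 mm3, where Colon 26 had at most 1.78 CPM. In the carcinoma list, Krt19 was higher at each size and Krt18 lower. The part of these other cells in the results for the 10 genes was not tested. Without Colon 26 replicate 1 of 400 mm3, the tumor with 2480 CPM of muscle markers, all 10 genes were again lower. The share of all genes in that fit is not given here.

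Genes that act with these 10 were counted by list. The other chains and kinases of the T cell receptor complex were lower in Colon 26 for 5 of 14 at 100 mm3, 12 of 14 at 400 mm3 and 0 of 14 at 800 mm3. The median log2 fold change was -1.17, -1.59 and -0.42. Trbc1, a constant region of the receptor beta chain, had -1.40, -2.12 and -0.64, with the last value not passing. Cd28, the co-stimulatory receptor, and Cd247, the CD3 zeta chain, showed the same pattern of calls.

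Other granule and killing genes were lower for 7 of 16 at 100 mm3, 5 of 15 at 400 mm3 and 7 of 16 at 800 mm3. Granzymes C and F were among them at every size, Gzmc with -2.63, -1.77 and -2.18 and Gzmf with -2.85, -2.54 and -2.76. Gzme passed at 100 and 800 mm3 (-3.02 and -2.50) and had -2.30 at 400 mm3 (edgeR adjusted p = 0.115). These granzyme genes are closely related in sequence and reads may be split between them. Fasl, the ligand of the death receptor Fas, was lower at each size (-2.21, -1.55 and -1.28).

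Other NK receptors were lower for 7 of 12 at 100 mm3, 9 of 11 at 400 mm3 and 5 of 11 at 800 mm3, and 1 (Itga2 at 800 mm3, named after its value was seen) was higher. Klrd1, which encodes CD94, the partner of the NKG2 receptors, had -1.60, -2.30 and -1.06. Klrg1, an inhibitory receptor of mature NK and T cells, had -1.92, -1.75 and -2.52. Klri2 (-2.16, -2.54 and -1.46) and the Ly49 family gene Klra3 (-1.98, -2.50 and -1.36) were also lower at every size, and close relatives in the Klra family may share their reads. Of 7 receptor adaptors, 1, 1 and 0 were lower, the 1 being Sh2d1a, the adaptor of the SLAM family receptors (-1.77 and -1.65 at 100 and 400 mm3).

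NKG2D ligands are the stress-induced partners of Klrk1 on target cells. Of 4 tested, 0, 2 and 1 were higher in Colon 26 at 100, 400 and 800 mm3 and none was lower. The ligand genes Raet1a, Raet1b, Raet1c and H60a found no match among the gene identifiers, so these counts do not cover them. Raet1e had 0.342 to 0.983 CPM in the CT-26 tumors of 400 mm3 and 1.22 to 1.63 CPM in the Colon 26 tumors, without overlap. Its log2 fold change was 0.46, 1.34 and 1.03, with edgeR adjusted p of 0.267, 0.0122 and 0.0168. Raet1d had 0.65, 1.26 and 0.37 and passed at 400 mm3 only. Members of the Raet1 family are near identical, and the split of reads between them is uncertain.

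Among 12 transcription factors of these cells, 2 of 12, 4 of 11 and 2 of 11 tested were lower. Eomes, a T-box factor of NK and CD8 T cells, was lower at each size (-2.03, -1.58 and -1.16), and Tbx21, which encodes T-bet, at 100 and 400 mm3 (-2.05 and -2.05, with -0.64 not passing at 800 mm3). Prdm1, which encodes Blimp-1, was lower at 400 and 800 mm3 (-2.38 and -1.21). Both Tbx21 and Prdm1 were also lower in cultured Colon 26 than CT-26 cells, with log2 fold changes of -4.5 and -5.27, from 0.666 ± 0.141 and 2.15 ± 0.452 CPM (SD, n = 3) in the CT-26 cultures. The part of the carcinoma cells in the tumor values was not tested. Tox, a factor of exhausted and developing T cells, was lower at 400 mm3 only (-2.09).

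Of the cytokines and receptors that activate cytotoxic cells, 4 of 11, 4 of 10 and 2 of 11 were lower and 1 (Il15ra at 800 mm3, named after its value was seen) was higher. Il15ra was also higher in cultured Colon 26 than CT-26 cells (log2 fold change 5.68). Il2rb, the beta chain shared by the receptors for interleukins 2 and 15, was lower at every size (-1.82, -2.04 and -1.23), with 18.9 to 95.7 CPM over the 12 CT-26 tumors and 4.81 to 23.8 CPM over the 12 Colon 26 tumors. Il12rb2, a chain of the interleukin 12 receptor, had -1.69, -2.13 and -1.17. Il2rg, the common gamma chain, passed at 100 and 400 mm3 (-1.13 and -1.14), as did Il18r1 (-1.23 and -1.57). Il2rg was also lower in cultured Colon 26 cells (log2 fold change -3.45), with 5.14 ± 0.51 CPM (SD, n = 3) in the CT-26 cultures.

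In the interferon-gamma pathway, 5, 2 and 2 of 12 genes were lower in Colon 26. Gbp2, an interferon-induced GTPase, had 197 to 1220 CPM in CT-26 and 21.4 to 188 CPM in Colon 26 at 100 mm3, and its log2 fold change was -2.48, -2.77 and -1.92 over the 3 sizes. In the cultures the log2 fold change of Gbp2 was -0.70, under the minimum fold. Cxcl10, a chemokine that attracts T and NK cells, and Irf1 passed at 100 mm3 only (-1.92 and -1.13). In the cultures Cxcl10 was higher in Colon 26 than in CT-26 (log2 fold change 1.67).

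Granzyme inhibitors were lower in Colon 26 for 3 of 4 at each size. Serpinb9, the inhibitor of granzyme B, had -1.52, -1.63 and -1.15, and its relatives Serpinb9b and Serpinb6b had -3.35, -3.84 and -3.41 and -1.54, -1.61 and -1.21. Unlike the 10 genes, these were expressed by the cultured lines and differed there too: Serpinb9b had 83.2 ± 0.142 CPM (SD, n = 3) in CT-26 cultures and 3.15 ± 0.1 CPM (SD, n = 3) in Colon 26 cultures, and Serpinb9 had 22.6 ± 1.21 CPM (SD, n = 3) against 10.9 ± 0.518 CPM (SD, n = 3). In culture the log2 fold change was -4.72 for Serpinb9b and -1.05 for Serpinb9. The Colon 26 cultures were sequenced more deeply than the CT-26 cultures and carry library numbers of a separate series, and this series and the line cannot be told apart in culture.

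**Figure D5:**
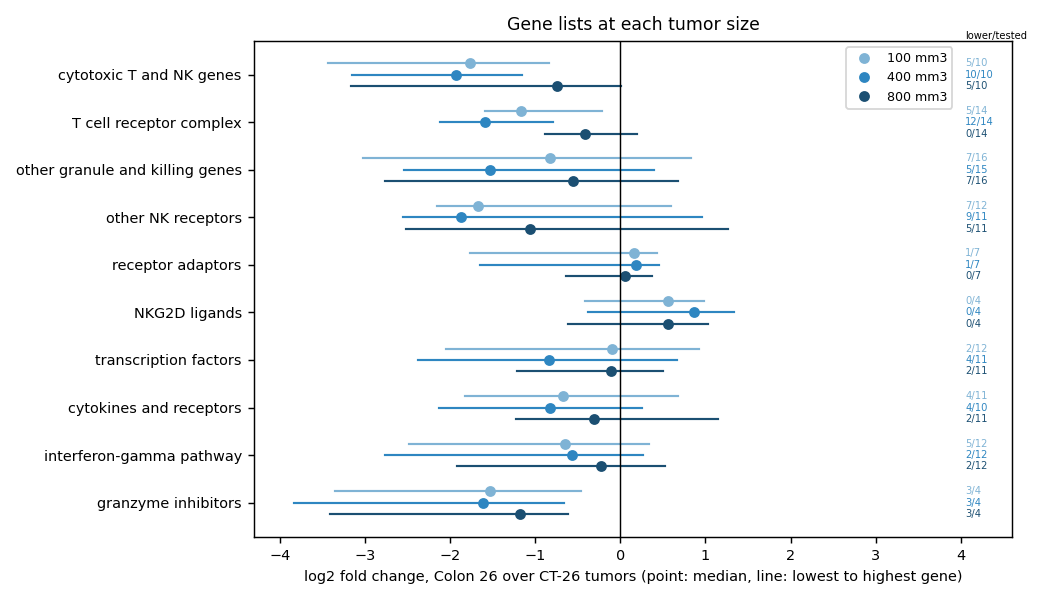
Median log2 fold change of Colon 26 over CT-26 tumors for each gene list at 100, 400 and 800 mm3 as a point, from the lowest to the highest gene as a line, with the number lower of the number tested at the right. The T cell receptor list goes from 12 of 14 lower at 400 mm3 to 0 of 14 at 800 mm3, the other granule genes from 5 of 15 to 7 of 16, and NKG2D ligands are the only list with positive medians above 0.5.

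The 10 genes differed in how closely they varied together across the tumors of a model. Pearson correlations of log2 CPM over the 12 tumors of a model, which share size groups and differ in cell content, are given as description. Cd8a and Cd8b1 had r = 0.98 in CT-26 and 0.95 in Colon 26, and Cd3e and Nkg7 had r = 0.93 and 0.90. Gzmb and Prf1 had r = 0.87 and 0.78, and Gzma and Ncr1 had r = 0.78 and 0.78. Gzma and Cd8a were among the less related pairs, with r = 0.36 and 0.26, and Gzma and Prf1 had r = 0.55 in CT-26 and -0.13 in Colon 26. The lowest value in CT-26 was 0.17, for Prf1 and Klrk1, which had 0.40 in Colon 26.

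Outside the 10, the genes with the most similar pattern over the 24 tumors were found by Pearson correlation with the mean standardised log2 CPM of the 10 genes. Over 13499 other genes the median r was -0.045. The 8 highest were Klrc1, which encodes the inhibitory receptor NKG2A (r = 0.968 over 24 tumors), H2-K1, an MHC class I heavy chain (0.966), Nlrc5, the transactivator of MHC class I genes (0.964), Klrd1 (0.963), Il2rb (0.963), Psmb9, an immunoproteasome subunit (0.957), Gbp4 (0.954) and Gm4951 (0.954). Within the 12 tumors of a model r stayed between 0.875 for Gbp4 in CT-26 and 0.967 for H2-K1 in Colon 26. The tumors share the model difference and the cells from which these genes are read, and H2-K1 has close relatives that may share its reads.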

How the data were processed

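RNA-seq libraries of 24 tumors and 6 cultures were analysed. The authors deposited estimated counts per gene, of which 23.0% of the values above 0 were not whole and were rounded here, and FPKM values, which the authors scaled by gene length and library size. The submitters' processing notes name DESeq2 1.24.0. The aligner, genome build and strand handling are not given in the sources used here. Columns were mapped to samples by their labels, and no group was inferred from values. Ensembl identifiers were named from GENCODE M21 (52207 of 53431, or 97.7%), and the list symbols Cd244, Raet1a, Raet1b, Raet1c and H60a found no match. Promoter windows came from RefSeq on GRCm38.p6.

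Counts were tested with edgeR 4.0.16 (R 4.3.3; TMM normalization, filterByExpr, quasi-likelihood test, Benjamini-Hochberg adjustment over all genes tested). Each comparison of 2 groups was fitted on those groups, and the mean of the 3 sizes and the changes of the model difference on all 24 tumors. CPM values are TMM-normalised, and correlations and ratios use log2 CPM with a prior count of 2. Within-tumor ratios were tested with scipy 1.17.1. The procedure was tested on simulated data. Alternatives were DESeq2 1.42.0, limma 3.58.1 on log2(FPKM + 1) and log2(FPKM + 0.1), other size factors, filters, thresholds and fitted samples, and leaving out each replicate. No 2 libraries of a group agreed within sampling noise (lowest chi-square per degree of freedom 2.91 over 42 pairs).

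The members and gene lists were chosen with earlier results of these data known. All 10 members are reported in every comparison. Of every other list up to 4 genes are named, those called at the most sizes and then those with the largest mean change, or up to 2 by level where none was called. The 8 most similar genes were taken by Pearson r. Results for some genes of the other lists are not reported here.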

Additional observations from a re-analysis of the deposited data

Results flagged for a closer look

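Of the 60 groups of 4 tumors examined (10 genes in 6 groups), 1 held a tumor far from the other 3. By chance alone the rule marks about 1 in 20 groups of normally distributed values. It was applied to CPM without logs, for which that rate may not hold. Prf1 had 113 CPM in replicate 3 of the CT-26 tumors of 400 mm3, against 22.3, 29.9 and 35.7 CPM in the other 3, so that the gap to the nearest tumor was 0.852 of the range of the group, above the 95% critical value of Dixon for 4 values. The same tumor had the most Gzmb of its group (92.0 CPM) and the least Cd3e (1.76 CPM), Cd8a (4.65 CPM), Klrk1 (4.96 CPM) and Ncr1 (1.52 CPM). It also had the least Ptprc of all 24 tumors, at 44.0 CPM, and the lowest summed level of 6 macrophage markers in its group, at 226 CPM against 584 to 771 CPM. Without it, Prf1 remained lower in Colon 26 at 400 mm3, and all 10 genes were called. The share of all genes called in that fit is not given here.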

How the results depend on the processing

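Gzma, Gzmb, Prf1 and Ncr1 stayed lower in Colon 26 at each size under every alternative run, and stayed called except Ncr1 in 1 alternative each at 400 and 800 mm3. The call of Nkg7 at 800 mm3 was lost in 8 alternatives beside 4 left-out tumors (log2 fold change -0.76 to -1.0). With limma on log2(FPKM + 1), 6 of the 10 genes were called lower at 400 mm3, 3 at 800 mm3 and 5 in the mean of the 3 sizes. The share of all genes called with this alternative is not given here, so these counts cannot be set against it. Leaving out each tumor in turn gave 4 to 6 lower genes at 100 mm3, 8 to 10 at 400 mm3, 4 to 5 at 800 mm3 and 5 to 10 in the mean of the 3 sizes, with 5 when CT-26 replicate 2 of 100 mm3 was left out. It gave 0 to 0 in the comparisons of sizes, the changes of the model difference and the cultures. The shares of all genes called without each tumor are not given here either, so these counts also lack a background.

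Values that turned sign were those of genes that had not passed. Leaving out each tumor, Cd3e ranged from -1.40 to 0.10, Cd8a from -1.99 to 0.25 and Cd8b1 from -1.68 to 0.21 in log2 fold change at 100 mm3, and Cd3e from -0.26 to 0.49 at 800 mm3. Prf1 in CT-26 at 400 against 100 mm3 ranged from -0.09 to 1.49. Among differences in log2 ratio to Cd3e at 400 mm3 the ranges were -0.12 to 0.12 for Cd8a (0.01 with a prior count of 0.5), -0.96 to 0.12 for Gzmb, -0.88 to 0.38 for Prf1 and -0.32 to 0.22 for Ncr1. The range was -0.30 to 0.06 for Cd8b1 to Cd3e at 100 mm3 and -0.09 to 0.42 for Cd3e to Ptprc at 800 mm3. Taken relative to Ptprc in place of Cd3e, 19 of the 30 ratios passed against 12, and at 400 mm3 the differences were -1.39 for Cd8b1, -1.28 for Ifng and -0.86 for Klrk1. Without 1 tumor, 0 to 11 ratios passed, and 0 whenever a tumor of 100 or 800 mm3 was left out, since ratios of that size then compare 3 with 4 tumors and cannot reach the lowest p, and too few others at the lowest p remain to pass the adjustment over 30 tests.

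Over all genes, edgeR called 0 and 0 genes in the CT-26 comparisons of 400 and 800 with 100 mm3, 2 and 205 in the Colon 26 ones and 0 and 8 in the changes of the model difference, where DESeq2 called 150, 39, 42, 309, 30 and 62. Single-gene values of the size comparisons other than those named, and of the changes of the model difference, were not followed under the alternatives. No paired analysis was possible because the labels carry no replicate numbers and each tumor is a separate sample. With 4 tumors a group and 12 to 238 counts of Cd3e per tumor, the spread between tumors limits what can be told for the low genes.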

Other observations

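Among the other granule genes, 3 granzymes were called higher at 800 than at 100 mm3 in Colon 26, and they were picked out after their values were seen. Against 100 mm3, the Colon 26 tumors of 800 mm3 had higher Gzmd, Gzme and Gzmg, granzymes related to Gzmb (log2 fold change 2.27 ± 0.51, 2.20 ± 0.48 and 2.19 ± 0.56 (SE), edgeR adjusted p of 0.051, 0.0489 and 0.0722), and 1.33% of all genes tested passed in that comparison. At 400 against 100 mm3 the log2 fold changes were of like size, 2.31 for Gzmd, 2.28 for Gzme and 2.18 for Gzmg, and did not pass (edgeR adjusted p of 0.228, 0.175 and 0.277). Gzme had 1.01, 2.05, 0.752 and 1.46 CPM in the tumors of 100 mm3 and 12.5, 3.04, 4.31 and 4.66 CPM in those of 800 mm3, so that every larger tumor was above every smaller one. In CT-26 at the same sizes the log2 fold changes were 1.82 for Gzmd, 1.69 for Gzme and 2.08 for Gzmg, which did not pass (edgeR adjusted p of 0.494 to 0.525), and the change of the model difference did not pass for any of the 3 (edgeR adjusted p of 0.937 to 0.988). These genes are closely related in sequence, and reads may be split between them.

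Granzymes of this group were also highest in the CT-26 tumor of 400 mm3 with the most Prf1. Replicate 3 of that group had 301 CPM of Gzmf (9.71 to 30 CPM in the other 3), 108 CPM of Gzme (3.17 to 10.3 CPM in the other 3) and 106 CPM of Gzmc (7.64 to 25.1 CPM in the other 3). Ctla4 was highest in the same tumor, with 15 CPM against 2.15 to 4.27 CPM in the other 3.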
